A study of Mus musculus with 14 samples.

Results

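Diet weight loss was compared with never having been obese, by the DNA methylation of mammary adipose tissue in 3 DIO-LFD and 3 CON-LFD mice, which are 6 of the 14 mice measured. The groups were taken from the sample labels, and every site in the methylation table was used. Both groups ended on a low-fat diet (10% of calories from fat), so the comparison asks which methylation differences were left from the obese period after weight loss. Sites of DIO-HFD mice (n = 4), which stayed obese, are given beside some results as a reference.

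All mice were wild-type female C57BL/6NCrl animals (C57BL/6N in the labels), bought at 8 weeks of age and acclimatized for 1 week. CON-LFD mice then ate the 10% fat diet throughout. DIO-LFD mice were made obese over 15 weeks on a high-fat diet (60% of calories from fat) and then switched to free access to the 10% fat diet, and DIO-HFD mice stayed on the high-fat diet. Mice of these 3 groups had a sham stomach operation at the time of the switch. Each mouse was injected 7 weeks later with E0771 mouse mammary tumor cells in the fourth mammary fat pad, and tissue was taken 4 weeks after that. The DNA came from the fat pad on the other side of the body, although the labels also list E0771 as the cell line. The model therefore holds no tumor-free mouse, and the 2 groups differ in the whole diet history, not in body weight alone. One CON-LFD and 1 DIO-LFD mouse had been removed by the authors for poor sequencing quality.

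In DNA methylation, a methyl group is attached to a cytosine, in mammals mostly where a guanine follows it (a CpG). Promoters within CpG islands, stretches dense in CpGs, are usually unmethylated, while most other CpGs of the genome are methylated, and copied methylation can outlast the signal that set it. In adipose tissue it is one of the marks followed as a possible memory of obesity. At imprinted genes the maternal and paternal copies differ in methylation, and in female mice the islands of the inactive X chromosome are methylated. Reduced-representation bisulfite sequencing (RRBS) reads the ends of short fragments cut by MspI at CCGG, and the level at a site is the methylated share of its reads. The tissue holds many cell types, so a different share of cells and a different level within cells cannot be told apart.

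Read numbers do not come with the levels, so depth is unknown and single-mouse levels carry no interval. Of 75761 sites, 65610 had a standard deviation of at least 0.05 across the 14 mice and were tested. A pair of libraries stood somewhat apart within their groups. Sites above 80% made up 28.8% of tested sites in CON-LFD replicate 3 and 29.2% in DIO-LFD replicate 2, and 32.9% to 39.0% in the other mice of both groups. Gene expression was not analysed here, so the labelled tissue could not be checked against the expression of its markers.

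The following sequences are shown because they hold the sites and regions on which the results turn. They were read from GRCm38.p6 (mm10) on the plus strand, with capitals at the CpGs measured. The first 3 hold the sites past the adjusted threshold, at chr9:120933320-120933399 in the promoter island of Ctnnb1, at chr15:4862140-4862240 upstream of Mroh2b, and at chr4:5762952-5763052 in an intron of Fam110b. The others hold the lower regions in an intron of Usp9x (chrX:13072878-13072981) and near Efcab6 (chr15:84075137-84075197), and the higher region in an exon of Ager (chr17:34598441-34598514).
Ctnnb1: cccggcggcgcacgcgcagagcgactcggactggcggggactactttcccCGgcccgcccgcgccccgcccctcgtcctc
Mroh2b: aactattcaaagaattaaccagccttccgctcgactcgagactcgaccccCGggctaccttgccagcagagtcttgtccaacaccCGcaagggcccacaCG
Fam110b: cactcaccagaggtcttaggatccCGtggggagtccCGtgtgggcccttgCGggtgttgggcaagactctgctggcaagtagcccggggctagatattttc
Usp9x: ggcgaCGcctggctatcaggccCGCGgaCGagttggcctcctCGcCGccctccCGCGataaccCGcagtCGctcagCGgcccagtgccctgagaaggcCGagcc
Efcab6: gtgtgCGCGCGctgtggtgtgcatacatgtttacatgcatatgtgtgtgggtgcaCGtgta
Ager: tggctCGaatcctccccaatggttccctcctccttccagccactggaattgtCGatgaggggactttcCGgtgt

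Averaged over the tested sites, DIO-LFD mice and CON-LFD mice were close. The 3 CON-LFD mice had mean levels of 64.3%, 64.1% and 60.6%, and the 3 DIO-LFD mice had 65.2%, 61.3% and 62.8%. These ranges overlap almost entirely. The group means were 63% ± 2.11 (SD, n = 3) and 63.1% ± 1.93 (SD, n = 3), a difference of 0.0988 percentage points (two-sided exact permutation test, p = 1.0, with 0.1 as the smallest p that 3 mice against 3 allow). DIO-HFD mice had a mean of 59.7% ± 4.38 (SD, n = 4).

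No class of sites separated the groups by its mean. In promoter CpG islands, the means were 42.1% ± 1.57 in CON-LFD and 42.1% ± 0.549 in DIO-LFD mice (SD, n = 3 each). Islands away from promoters gave the widest positive difference, 45.2% against 45.6%, which is 0.374 percentage points. Sites with no promoter, island, exon or intron flag were the single class with a lower mean in DIO-LFD mice, by -0.270 percentage points, at 75.9% against 75.7%. Over the 6 classes the exact p was 0.9 to 1.0, and 1.0 after adjustment. The sign of these differences turned when 1 mouse was left out, to between -1.12 and 0.989 percentage points over all tested sites, with CON-LFD replicate 3 (-1.12) and DIO-LFD replicate 1 (-0.929) deciding the direction.

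**Figure D1:**
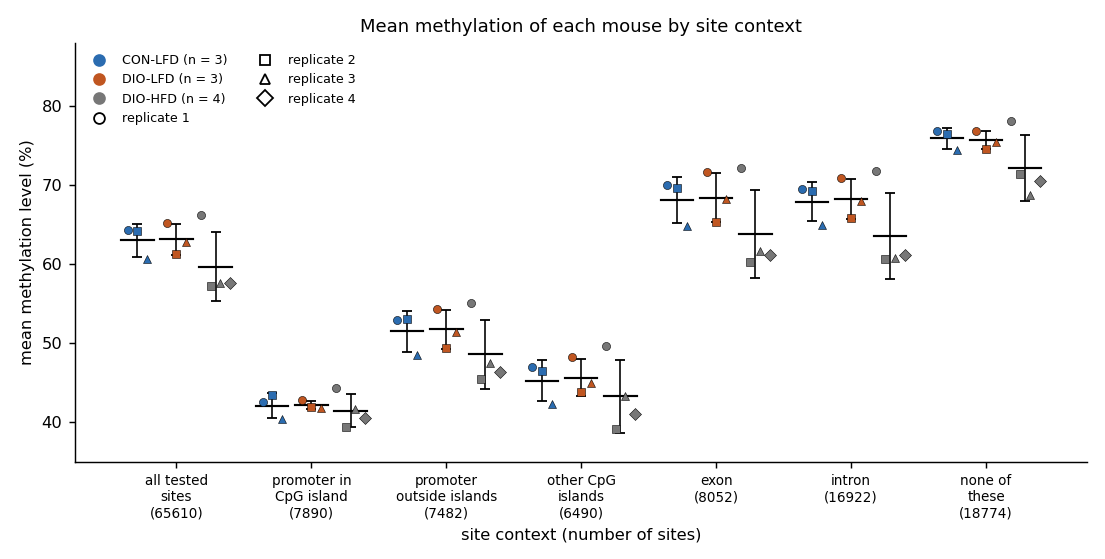
Mean methylation level in percent (y axis) of each mouse by site context (x axis, with the number of sites), for CON-LFD, DIO-LFD and DIO-HFD mice; points are mice with their replicate number as the symbol, long bars are group means and whiskers are SDs. The CON-LFD and DIO-LFD points overlap in every context, at 60.6% to 64.3% and 61.3% to 65.2% over all tested sites.

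Site by site, a DIO-LFD mouse was about as far from a CON-LFD mouse as mice of one group were from each other. The distance is the root mean square of the difference in level over the tested sites. The 3 CON-LFD pairs lay 9.05, 11.2 and 11 percentage points apart, and the 3 DIO-LFD pairs lay 13.7, 10.8 and 12.1 apart. The 9 pairs across the groups ranged from 9.54 to 12.7, with a median of 10.4. The closest pair across the groups was CON-LFD replicate 2 and DIO-LFD replicate 1, and the farthest was CON-LFD replicate 3 and DIO-LFD replicate 1. DIO-HFD mice lay at a median of 14.3 percentage points from CON-LFD mice and 14 from DIO-LFD mice. They lay about as far from each other, at a median of 13.9 and a range of 9.60 to 18.8. The spread among DIO-LFD mice was somewhat wider than among CON-LFD mice, with a median SD per site of 6.34 against 5.58 percentage points, and it was the wider at 56.3% of sites.

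For the test of single sites, levels were put on the M scale, the log2 ratio of methylated to unmethylated share with 0.01 added to each, and limma was fitted to all 4 groups with the Benjamini-Hochberg adjustment over the 65610 sites. With adjusted p under 0.05, 3 sites (0.00457%) differed, 2 higher (0.00305%) and 1 lower (0.00152%) in DIO-LFD mice. The unadjusted p was under 0.05 at 1841 sites (2.81%), 934 higher (1.42%) and 907 lower (1.38%), which is fewer than the 3280.5 sites that make up the threshold's own share. All 3 DIO-LFD mice lay above or below all 3 CON-LFD mice at 4628 sites (7.05%), 2419 higher (3.69%) and 2209 lower (3.37%). A random order of 3 mice against 3 would separate the groups at a share of 0.1 of sites, which is more than was found. Differences were small at most sites, with 90% of them between -8.92 and 8.98 percentage points. The group means lay at least 20 percentage points apart at 349 sites (0.532%) and at least 30 apart at 43. Left-out mice moved the count of 3 sites to 20 without DIO-LFD replicate 2, to 7 without CON-LFD replicate 1, DIO-LFD replicate 1 or DIO-LFD replicate 3, and to 1 without CON-LFD replicate 2. The unadjusted counts and their even split moved too, to 751 higher and 1382 lower without CON-LFD replicate 3, and to 1411 higher and 1021 lower without DIO-LFD replicate 3. Without DIO-HFD replicate 1 they were 1413 higher and 1257 lower.

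The site with the smallest p lay in the promoter CpG island of Ctnnb1, which encodes beta-catenin, the effector of canonical Wnt signaling and a part of cell junctions. The site is at position 120933370 of chromosome 9, within CCGG and -30 bp from a transcript start, in a GENCODE intron of a longer transcript of the gene, which spans 120929216 to 120960507. Its levels were 14.3%, 30.4% and 11.8% in CON-LFD mice and 0% in all 3 DIO-LFD mice. The groups did not overlap, and the 4 DIO-HFD mice, at 27.6%, 19.3%, 19.7% and 13.5%, lay within the CON-LFD range. All 4 DIO-VSG mice, which had lost weight after sleeve gastrectomy, were also at 0%, so the exact 0 was not particular to diet weight loss. The difference on the M scale was -4.50 (SE 0.42), with adjusted p = 0.00489 by limma, and with 1 mouse left out in turn the adjusted p was 0.00401 to 0.0279. Because every DIO-LFD level is an exact 0, the size on the M scale depends on the 0.01 added. With 0.1 added it was -1.75, and the adjusted p was 1.0.

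The other 7 measured sites of Ctnnb1 did not share the difference, with group means -5.31 to 7.89 percentage points apart. At 172 bp from the site the levels were 43.1%, 38.4% and 41.9% in CON-LFD mice and 43.2%, 51.4% and 52.4% in DIO-LFD mice (unadjusted p = 0.128 by limma). At 288 bp they were 70.7%, 74.5% and 81% against 82.6%, 65.0% and 75.4%. The first of these neighbors was higher in each DIO-LFD mouse than in any CON-LFD mouse, opposite to the called site, and the second overlapped. In the sequence above, the called CpG is the one measured CpG of its window, and the 30 bases around it occur 1 time in the chromosomes.

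The other 2 called sites were fully methylated in every DIO-LFD mouse. The first, at position 4862190 of chromosome 15, lies within CCGG, -36547 bp from the start of Mroh2b and outside any GENCODE gene. Its levels were 85%, 71.4% and 87.0% in CON-LFD mice and 100% in each DIO-LFD mouse, while DIO-HFD mice were at 94.7%, 93.3%, 92.3% and 81.8% and DIO-VSG mice at 83.3%, 90%, 85.7% and 91.7%. The difference was 4.54 on the M scale (SE 0.50, adjusted p = 0.0167 by limma), and the call was lost without CON-LFD replicate 2 (adjusted p = 0.0749). The 5 next sites, 35 to 194 bp away, were higher in DIO-LFD mice by 2.65 to 12 percentage points on average, and the groups overlapped at all but the one 189 bp away (unadjusted p = 0.0234).

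The second, at position 5763002 of chromosome 4, lies in an intron of Fam110b. It was at 88.2%, 91.3% and 80% in CON-LFD mice and 100% in each DIO-LFD mouse, and DIO-HFD mice were at 92.0%, 81.8%, 75% and 75.9% and DIO-VSG mice at 90.3%, 89.7%, 94.1% and 86.7%. Its difference was 3.99 on the M scale (SE 0.50), with an adjusted p of 0.0491 by limma, just inside the threshold. With 1 of the 14 mice left out it stayed past the threshold 1 time in 14, without DIO-HFD replicate 1, and the adjusted p reached 0.208 without CON-LFD replicate 3. The DIO-LFD mice were also all at 100% at the neighbors at -80 and -78 bp, where CON-LFD mice had 93.1% to 96.1% and 89.7% to 95.7%. The closer site at -26 bp went the other way, at 80.6%, 82.5% and 87.9% in CON-LFD mice and 84.8%, 73.7% and 66.7% in DIO-LFD mice, with overlap (unadjusted p = 0.339 by limma). At -14 bp the groups overlapped as well, at 84.6%, 95.5% and 93.1% against 96%, 100% and 90%.

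These 2 sites near Mroh2b and Fam110b share repeated sequence. Their windows have a run of 24 bases in common, on opposite strands, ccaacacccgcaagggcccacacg, which has 3443 exact copies in the chromosomes. The run holds 2 CpGs, and both are measured in each window. Near Fam110b they are the called site and the site at -14 bp. Near Mroh2b they lie 35 and 49 bp from the called site. At 35 bp levels were 90.0%, 92.9% and 91.3% in CON-LFD mice and 100%, 100% and 85% in DIO-LFD mice. At 49 bp the groups overlapped as well. The 30 bases around the called site have 3347 exact copies for Fam110b and 58 for Mroh2b, so the placement of reads there is uncertain.

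**Figure D2:**
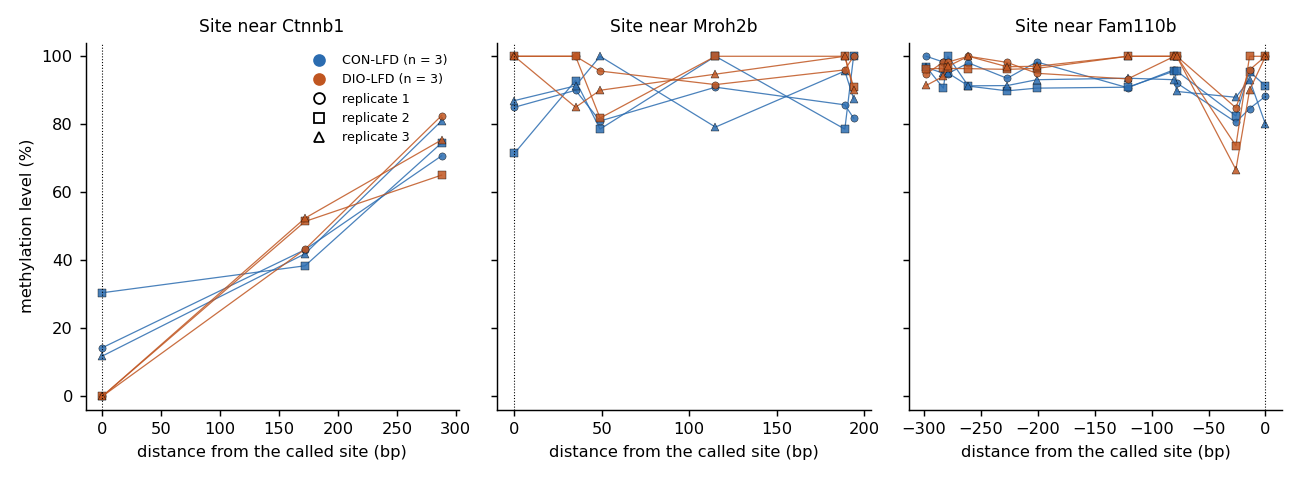
Methylation level in percent (y axis) at the 3 sites with adjusted p under 0.05 (dotted line) and at other measured sites near each, by distance in bp (x axis); each line is a mouse, with CON-LFD in blue, DIO-LFD in orange and the replicate number as the symbol. At Ctnnb1 the DIO-LFD mice are at 0% at the called site and among or above the CON-LFD mice 172 bp away, while at Mroh2b and Fam110b the DIO-LFD mice are at 100% at the called site and overlap with CON-LFD mice at most other sites, down to 66.7% in DIO-LFD mice 26 bp from the Fam110b site.

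The next sites by p did not pass the adjusted threshold. A site 18856 bp from the start of Olfr478, an olfactory receptor gene (chromosome 7, 108013486), was at 87.0%, 96.2% and 85.7% in CON-LFD mice and 100% in all DIO-LFD mice (adjusted p = 0.800 by limma). A site near the small nucleolar RNA gene Gm25462 (chromosome 7, 59500288) lies in an intron of Snhg14, the long host transcript of the imprinted Prader-Willi and Angelman region. Its levels were 85.7%, 84.6% and 88.9% in CON-LFD mice and 97.1%, 100% and 100% in DIO-LFD mice, and 100% in all 4 DIO-HFD mice (adjusted p = 1.0). A group with all its mice at 0% or 100% was found at 0.626% of tested sites and at 5.49% of those with an unadjusted p under 0.05.

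The sites past the unadjusted threshold were spread over all contexts. Their share was 3.55% in promoter CpG islands, 2.29% in promoters outside islands, 2.40% in islands away from promoters, 1.78% in exons, 2.26% in introns and 3.78% at sites with none of these flags. Higher sites outnumbered lower ones in islands away from promoters, 97 to 59, and in introns, 223 to 159. Sites with no flag leaned the other way, with 307 higher and 402 lower. By mean level, the share was 4.29% at sites over 80%, 1.89% between 20% and 80%, and 3.58% under 20%. Of the lower sites 42.4% had none of these flags and also no flag for lying upstream of a gene. This held for 31.6% of the higher sites and 27.3% of all tested sites.

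**Figure D3:**
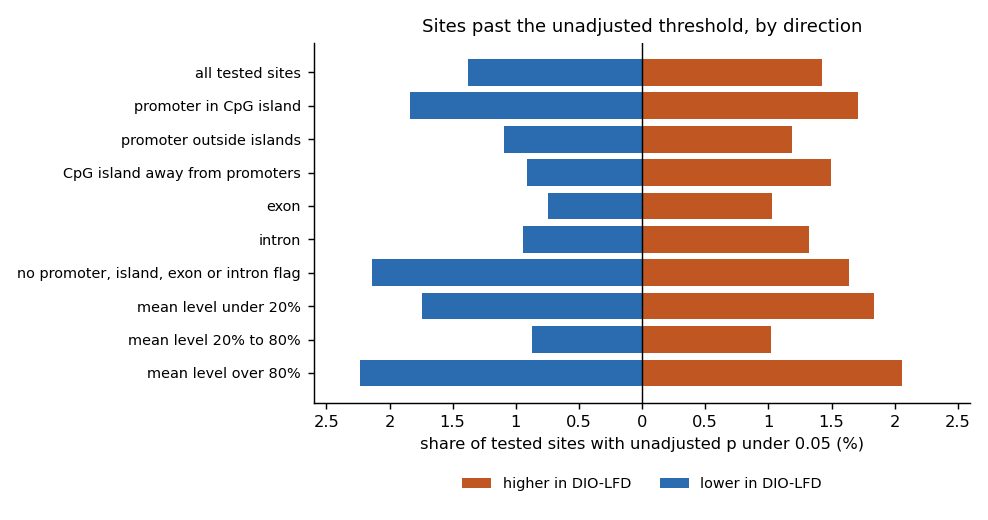
Share of tested sites, in percent (x axis), with an unadjusted p under 0.05 by limma, drawn to the right where DIO-LFD mice were higher and to the left where they were lower, by site context and by mean level over 14 mice (y axis). The shares are 1.42% higher and 1.38% lower over all tested sites, and the lower side is the longer at sites with no flag.

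Neighboring sites were joined to regions where at least 3 followed each other with gaps of at most 100 bp, and their mean levels were tested in the same way. Of 4845 regions, 0 had an adjusted p under 0.05 by limma (0.0%), 52 (1.07%) had an unadjusted p under 0.05, 23 higher (0.475%) and 29 lower (0.599%). The groups did not overlap at 182 regions (3.76%), 99 higher (2.04%) and 83 lower (1.71%). Of 675 gene promoters with at least 3 sites, again 0 passed by limma (0.0%), and 9 (1.33%) had an unadjusted p under 0.05, 5 higher (0.741%) and 4 lower (0.593%). The groups did not overlap at 15 promoters (2.22%), 10 higher (1.48%) and 5 lower (0.741%). Without DIO-HFD replicate 1, 66 regions were higher and 46 lower at the unadjusted threshold, and without DIO-LFD replicate 2 it was 39 and 21, so the lean to lower regions turned. Promoters past it numbered 22, 8 higher and 14 lower, without DIO-LFD replicate 2. The regions and promoters named here were chosen by size among those with separated groups and an unadjusted p under 0.05, so that separation is a property of the choice. Their adjusted p was 0.999 or more.

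Of the 6 higher regions, 2 lie on the X chromosome and 1 in the gene for a receptor of metabolic damage products. Ager encodes RAGE, the receptor for advanced glycation end products. Its region, in a coding exon 554 bp from the start, had a mean of 10%, 19.9% and 19.1% in CON-LFD mice and 41.1%, 26.0% and 26.4% in DIO-LFD mice. All 3 of its sites were higher, by 2.83 to 22.1 percentage points, and DIO-LFD replicate 1 was the highest. DIO-HFD mice spanned both groups, at 34.9%, 18.5%, 18% and 24.2%. The promoter of Ager, with 4 sites, was at 10%, 22.2% and 24.4% against 39.6%, 26.3% and 27.0%.

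Armcx2, an X-linked gene of the armadillo repeat family, was higher in an untranslated exon (chrX:134808950-134808976), with 27.4%, 20.3% and 27.5% in CON-LFD mice and 32.5%, 32.0% and 58.1% in DIO-LFD mice. Much of that difference came from DIO-LFD replicate 3. Bcor, which encodes a corepressor that works with BCL6, had 8.91%, 24.5% and 25.6% in an intronic island (chrX:12087893-12087960) against 26.8%, 47.1% and 29.8%, and here DIO-LFD replicate 2 was the highest. The other 3 higher regions lie in gene bodies with high levels. Vill, a villin-like gene (chr9:119068305-119068386), was at 82.6%, 78.6% and 64.8% against 85.3%, 84.2% and 86.5%. The region assigned to the antisense gene Ptprtos, in an intron of the receptor phosphatase gene Ptprt (chr2:162146633-162146673), was at 90.8%, 86.0% and 83.4% against 92.7%, 97.9% and 96.1%. Ap3m2, a subunit of the AP-3 adaptor complex of vesicle transport (chr8:22803912-22803956), was at 84.7%, 85.7% and 77.8% against 91.0%, 86.0% and 97.4%.

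Of the 5 lower regions, Usp9x had the most sites. It encodes a deubiquitinase, and its region of 12 sites over 94 bp lies in a CpG island in the first part of the gene, 1371 bp from the start, in an intron on the X chromosome. Its means were 37.1%, 30.1% and 36.9% in CON-LFD mice and 24.5%, 19.4% and 20.9% in DIO-LFD mice. All 12 sites were lower, with differences of -20.6 to -5.82 percentage points, and the spread within either group was small beside the difference of -13.1 percentage points (M -0.92, SE 0.35, unadjusted p = 0.0175 by limma). DIO-HFD mice spanned both groups, at 31.3%, 19.4%, 28.5% and 21.9%.

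Efcab6, an EF-hand calcium-binding gene, had a region -9794 bp from its start at 82.1%, 70.7% and 65.3% in CON-LFD mice and 62.1%, 51.6% and 60.4% in DIO-LFD mice. All 4 of its sites were lower, with differences of -17.3 to -12.4 percentage points. Defa30, an alpha-defensin gene (chr8:21132746-21132846), was at 82.0%, 81.7% and 74.5% against 65.3%, 60.0% and 74.2%, with DIO-LFD replicate 3 only just below CON-LFD replicate 3. The region near the olfactory receptor gene Olfr1271 (chr2:90272689-90272750) was at 92.9%, 98.3% and 92.9% against 85.5%, 86.2% and 91.3%. That in an intron of Gpc5, a glypican of the cell surface (chr14:115116341-115116367), was at 91.0%, 91.2% and 95.5% against 85.1%, 88.5% and 85.5%. Alpha-defensin and olfactory receptor genes belong to large families with similar copies, so reads at these 2 regions may be shared.

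The lower promoters were those of Atxn2, an RNA-binding protein, and the zinc finger gene Zfp236. Atxn2, with 4 sites (chr5:121711081-121712408), was at 71.9%, 55.9% and 59.2% in CON-LFD mice and 55.3%, 44.5% and 53.1% in DIO-LFD mice. Zfp236, with 3 sites, was at 52.0%, 57.4% and 49.2% against 35.6%, 38.2% and 45.8%. In both, the highest DIO-LFD mouse lay close to the lowest CON-LFD mouse.

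**Figure D4:**
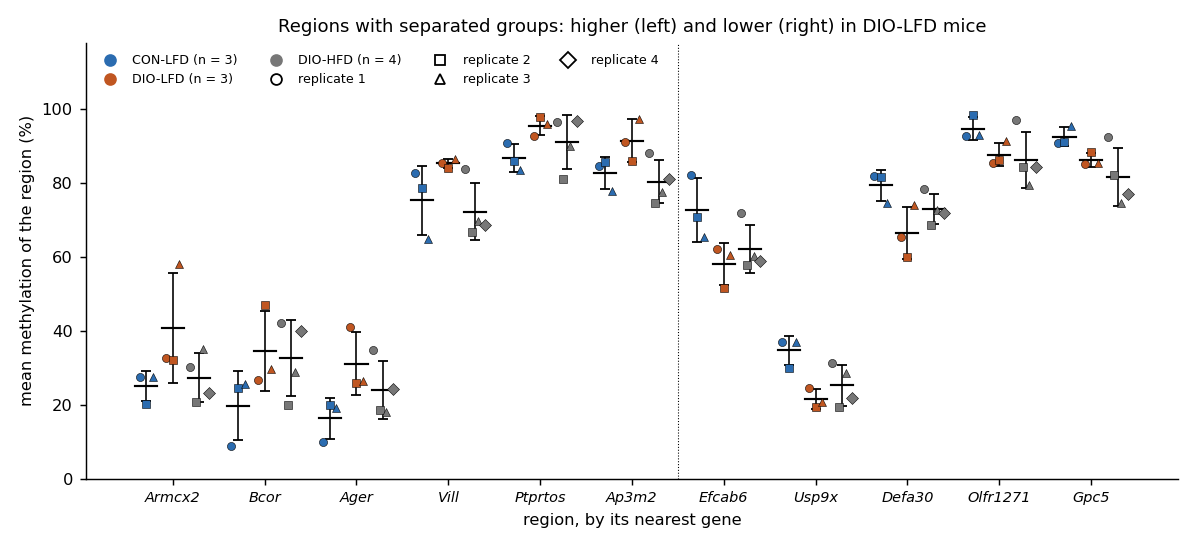
Mean methylation in percent (y axis) of the 11 named regions (x axis, by nearest gene) in each CON-LFD, DIO-LFD and DIO-HFD mouse; points are mice with the replicate number as the symbol, long bars are means and whiskers are SDs, and the dotted line parts regions higher in DIO-LFD mice (left) from lower ones (right). The choice of regions makes CON-LFD and DIO-LFD points separate, and DIO-HFD points often span both, as at Ager (18% to 34.9%) and Usp9x (19.4% to 31.3%).

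The genes of 18 lists were read by their sites on the gene or within 5000 bp of its start. Over all genes, 2.44% of 48540 such sites had an unadjusted p under 0.05, 650 higher and 534 lower, with a median difference of 0.290 percentage points. Each site named below for a list had the largest difference in its direction among sites with an unadjusted p under 0.05 and no overlap. Its separation is therefore a property of the choice, and no site so chosen passed the adjusted threshold. Among markers of the cell types of the fat pad, few sites passed the unadjusted threshold, and no adjusted call was made. Adipocyte markers had 0 of 61 sites, from 10 of 25 genes with a site, and lymphocyte markers had 0 of 144. Mean levels at the adipocyte markers were 74.0% in CON-LFD and 73.9% in DIO-LFD mice. Macrophage and myeloid markers had 1 of 23 sites, endothelial markers 1 of 54, mammary epithelial markers 1 of 41, and fibroblast and matrix genes 1 of 164, each higher in DIO-LFD mice. Sites were tested in 4 of 24 macrophage and myeloid markers, 11 of 30 lymphocyte markers, 15 of 20 endothelial markers, 10 of 26 mammary epithelial markers and 15 of 30 fibroblast and matrix genes. A different share of cell types between the groups was not tested.

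The single sites behind these counts were at Cebpb, Flt1, Esr1 and Pdgfrb. Cebpb, a transcription factor of myeloid cells and of early adipogenesis (chromosome 2, 167689638), was at 35.9%, 26.8% and 38.2% in CON-LFD mice and 50%, 58.3% and 39.7% in DIO-LFD mice in its exon. Flt1, a VEGF receptor, was at 40.0%, 46.0% and 41.5% against 52.9%, 51% and 59.6% near its start. An intronic site of Esr1, the estrogen receptor, was at 80.7%, 70.8% and 76.7% against 88.9%, 93.3% and 86.8%. Pdgfrb, a growth factor receptor of stromal cells, was at 86.0%, 96.7% and 84.4% against 98.6%, 98.0% and 98.6% in an untranslated exon. Each of these sites had an adjusted p of 1.0.

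Among metabolic genes the share depended on the list and the measure. Adipogenesis and lipid metabolism genes had 4 higher and 3 lower of 255 sites (2.75%), with a median difference of 1.57 percentage points. The groups did not overlap at 10.6% of these sites, 18 higher and 9 lower. Over all genes this share was 6.46%, with 1772 higher and 1366 lower. Lists outside metabolism also lay above it, so the share was not particular to these genes. It was 10.06% of 696 sites for patterning transcription factors and 13.04% of 23 sites for macrophage and myeloid markers. For adipocyte markers it was lower, at 1.64% of 61 sites. A random order of 3 mice against 3 would separate the groups at a share of 0.1 of sites, close to the 10.6% and 10.06%. At Dlk1, an imprinted inhibitor of adipocyte differentiation, a coding site (chromosome 12, 109459950) was at 53.2%, 58.2% and 55.0% in CON-LFD mice and 71.1%, 65.2% and 68.0% in DIO-LFD mice. At Prdm16, a regulator of brown fat identity, an intronic site near the start (chromosome 4, 154636688) was at 80.9%, 71.4% and 70.2% against 68.2%, 54.1% and 66.0%. Insulin, mTOR and AMPK genes had 2 higher and 0 lower of 143 sites. Both were in 1 gene, and their share was below the 2.44% over all genes. The groups did not overlap at 6.99% of the sites of this list, 9 higher and 1 lower, close to the 6.46% over all genes. A site of Grb10, an imprinted adaptor that restrains insulin signaling (chromosome 11, 12026797), was at 63.8%, 66.7% and 58.5% against 77.6%, 70.2% and 91.3%. Leptin, glucagon and gut hormone genes had 1 higher of 29 sites, and inflammation and cytokine genes had 0 of 55.

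Signaling and chromatin lists gave mixed directions. The Wnt and beta-catenin list had 6 higher and 3 lower of 323 sites (2.79%), and its 1 adjusted call is the Ctnnb1 site above. Wnt10b, a ligand that restrains adipogenesis (chromosome 15, 98780799), was at 53.5%, 54.7% and 50.6% in CON-LFD mice and 72.5%, 64.3% and 73.0% in DIO-LFD mice upstream of its start. Axin2, a feedback inhibitor and known target of the pathway (chromosome 11, 108923367), was at 29.7%, 38.1% and 31.5% against 29.3%, 3.23% and 8.33% in a coding exon near a start, with DIO-LFD replicate 1 near the controls. The TGF-beta and BMP list had 3 higher and 5 lower of 245 sites, and Ltbp4, a binding protein that holds latent TGF-beta in the matrix, had one of each. One coding site of Ltbp4 was at 19%, 28.9% and 42.0% against 49.1%, 46.7% and 49.5%, and another was at 100% in all CON-LFD mice against 93.5%, 57.1% and 95%. Chromatin and DNA methylation enzymes had 1 higher of 269 sites (0.372%).

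Nuclear receptors had 9 higher and 5 lower of 342 sites (4.09%). Thra, a thyroid hormone receptor (chromosome 11, 98741946), was at 0%, 19.4% and 14.4% in CON-LFD mice and 26.9%, 34.7% and 27.2% in DIO-LFD mice in an untranslated exon. Nr1h2, the oxysterol receptor LXR-beta, was at 60.0%, 77.8% and 60.0% against 52.2%, 30% and 59.3%, where 1 DIO-LFD mouse was far below the rest. Hox genes had 3 higher and 1 lower of 215 sites. Hoxd1 was at 34.4%, 30.5% and 36.6% against 45.5%, 40.2% and 54.8%, and Hoxa10 at 67.2%, 66.5% and 68.3% against 57.7%, 51.1% and 57.0%. Other patterning transcription factors had 16 higher and 7 lower of 696 sites (3.30%). Foxc2, a regulator of adipocyte and vessel development, was at 58.0%, 51% and 58.3% against 67.3%, 100% and 71.4%, and Irx2 at 67.7%, 61% and 57.3% against 44.8%, 37.1% and 57.1%.

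Adrenergic and thermogenic genes had 23 higher and 10 lower of 249 sites (13.3%), and imprinted genes had 23 higher and 6 lower of 206 (14.1%). In both lists 24 of these sites belong to Gnas, which encodes the stimulatory G protein alpha subunit that couples beta-adrenergic receptors to cAMP. Without Gnas the shares were 5.42% of 166 sites and 4.07% of 123. Adra2a, an inhibitory adrenergic receptor, had a coding site at 59.1%, 58.7% and 61.3% in CON-LFD mice and 37.3%, 45.4% and 55.4% in DIO-LFD mice. Tbx1, a marker of beige fat precursors, had an intronic site (chromosome 16, 18588280) at 31.0%, 51.8% and 51.5% against 56.2%, 81.2% and 63.9%, and 5 of its 58 sites passed the unadjusted threshold, 2 higher and 3 lower.

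Gnas was looked at more closely after its values were seen, because it had the most such sites of any gene, 24 of 83. It is an imprinted gene with several promoters, which give the Nesp, XLas, 1A and Gs-alpha transcripts, on chromosome 2 from 174284320 to 174346744. The sites lie close together in a few regions and share reads, so their number does not count independent differences. In the region at 174299957 to 174300469, which overlaps the end of the large XLas exon, mean levels over 26 sites were 47.1%, 46.7% and 46.1% in CON-LFD mice and 51.7%, 54.5% and 52.9% in DIO-LFD mice. Both groups were tight and did not overlap, DIO-HFD mice were at 45.7%, 46.9%, 53.4% and 47.4%, and the region varied too little across the 14 mice to be tested. In the same exon, 2 regions before it had lower means in DIO-LFD mice at all their sites. The one at 174299142 to 174299355, with 16 sites, was at 55.3%, 45.7% and 45.7% in CON-LFD mice and 46.5%, 35.5% and 41.4% in DIO-LFD mice, with overlap (unadjusted p = 0.206 by limma). The one at 174299610 to 174299649, with 3 sites, was at 47.6%, 44.3% and 49% against 44.9%, 39.6% and 36% and was not tested.

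Further along Gnas, 3 regions follow each other within a 5' exon (UTR) of a protein-coding transcript. In the first, at 174328742 to 174328781, the means were 33.5%, 30.2% and 35.5% in CON-LFD mice and 39.7%, 57.6% and 39.1% in DIO-LFD mice. In the second, at 174328905 to 174329095, they were 25.4%, 22.2% and 31.9% against 38.4%, 47.2% and 29.3%, and all 24 sites had a higher mean in DIO-LFD mice. DIO-LFD replicate 2 was the highest in both, and without it the differences went from 12.4 to 6.34 and from 11.8 to 7.36 percentage points. In the third, at 174329242 to 174329339, levels were low and went the other way, at 5.85%, 8.73% and 16.8% against 2.90%, 6.70% and 2.05%, with all 10 sites lower. By limma the unadjusted p was 0.0524, 0.0431 and 0.0208 for the 3 regions, and the adjusted p was above 0.999 for each. The region of Nespas, the antisense transcript at the Nesp promoter, was at 47.0%, 47.2% and 49.8% in CON-LFD mice and 48.7%, 52.5% and 47.5% in DIO-LFD mice, with overlapping groups.

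**Figure D5:**
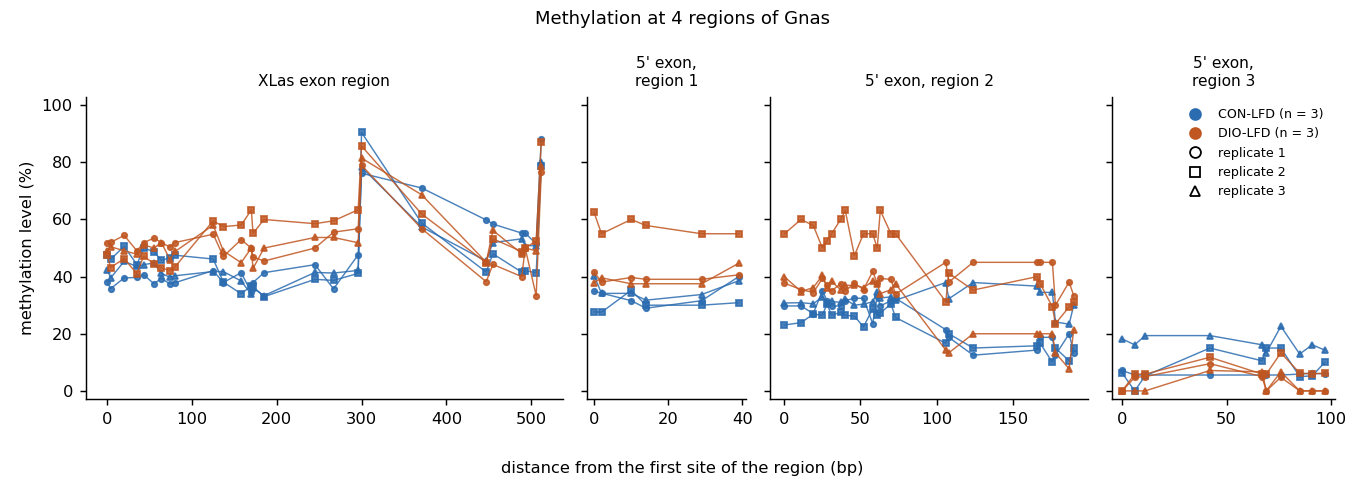
Methylation level in percent (y axis) at the sites of 4 Gnas regions, by distance in bp from the first site of each region (x axis); each line is a mouse, with CON-LFD in blue and DIO-LFD in orange. DIO-LFD mice lie above CON-LFD mice in the middle of the XLas exon region, DIO-LFD replicate 2 is far above the rest in the first region of the 5' exon and at the start of the second, and levels in the third are low, with DIO-LFD means of 2.05% to 6.70%.

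Next to Gnas, the genes with the most sites past the unadjusted threshold were both X-linked, Tmem28 with 13 of 70 sites and Usp9x with 10 of 75, and they too were named after their values were seen. Of 11825 genes, 1473 had at least 1 such site and 6 had at least 5. In Tmem28, 3 sites of the region at 99820129 to 99820320 were higher, and 9 sites of the region at 99820947 to 99821211 were lower. The latter region had means of 54.3%, 39.0% and 57.5% in CON-LFD mice and 38.8%, 28.1% and 41.8% in DIO-LFD mice, and these overlap (unadjusted p = 0.0427 by limma, adjusted p above 0.999). The former had 26.6%, 38.1% and 30.9% against 42.1%, 36.3% and 38%, also with overlap. All 10 sites of Usp9x past the threshold were lower, 6 of them in the region described above. Just before the start of Usp9x, a region of 16 sites (chrX:13070949-13071236) was at 38.6%, 37.2% and 41.7% in CON-LFD mice and 31.4%, 32.5% and 34.2% in DIO-LFD mice. Of its sites 5 were higher in DIO-LFD mice, and it varied too little across the 14 mice to be tested. The region at 13072504 to 13072599 was also separated, at 35.6%, 35.7% and 31.2% against 28.0%, 26.1% and 18.2%. Those starting at 13071595, 13072148 and 13072706 overlapped. At 13072148 to 13072173 the means were 25.1%, 26.4% and 21.7% against 18.3%, 31.5% and 4.31%. Over its 75 sites Usp9x had means of 31.4%, 32.3% and 30.3% in CON-LFD mice and 25%, 26.5% and 21.8% in DIO-LFD mice.

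The X chromosome as a whole did not follow Usp9x. Its CpG islands, 1115 sites, had means of 32.8%, 32.8% and 29% in CON-LFD mice and 30.9%, 29.8% and 32.7% in DIO-LFD mice, a difference of -0.418 percentage points (two-sided exact permutation test, p = 0.8). Its other 1954 sites differed by -0.289 percentage points (exact p = 0.8). Of 171 tested regions on the X chromosome, 7 (4.09%) had an unadjusted p under 0.05, against 0.963% of the other regions. The 2 shares were not tested against each other, because regions of a gene are not independent.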

How the data were processed

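RRBS was done on DNA of the fat pad contralateral to the tumor. Alignment to mm10 (Bismark), sorting (samtools) and methylation calls (methylKit) were done by the authors, who also removed sites of extreme coverage and 2 mice. They deposited the methylation level as a fraction from 0 to 1 in each mouse, with gene, promoter, exon, intron and island annotation but no read counts. The test they used is not given in the sources used here.

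M was log2((b + 0.01)/(1 − b + 0.01)) for a level b. Sites, regions and promoters were fitted with limma 3.58.1 in R 4.3.3 for 4 groups (14 mice), with the Benjamini-Hochberg adjustment and 0.05 as threshold. The procedure was tested on simulated data. Mean levels were compared by two-sided exact permutation tests (SciPy 1.17.1, Python 3.11.15). Per-mouse columns of the table were all mapped from the labels. The limma p-values set a difference against the spread between mice within groups, pooled over all 4 groups.

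The comparison and the gene lists were chosen with earlier results of these data known. Named were the 5 sites with the smallest p, with the other sites of Ctnnb1, and up to 8 regions and 4 promoters in each direction with the largest differences among those with an unadjusted p under 0.05 and no overlap. These were limited to 1 per gene, to named genes other than predicted models, and to regions flagged as genic or within 10000 bp of a start. In each list the site with the largest difference in each direction among sites so separated was named. Gnas, Tmem28 and other genes with many sites were added once their values had been seen. The alternatives tried were the offset, levels in place of M, trend and robust settings, a fit of 2 groups, centring, filters, autosomes, sites outside CCGG, other region rules, a replicate block, and leaving out each mouse. Leaving out CON-LFD replicate 3 with DIO-LFD replicate 2 was added after seeing the data. Sequences and features came from GRCm38.p6 and GENCODE vM21.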

Additional observations from a re-analysis of the deposited data

Results flagged for a closer look

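One group stood out among 17 sets of 4 mice checked for a mouse far from the rest. By chance about 1 in 20 would, or 0.85 of these 17, so the count alone does not set this group apart from chance. It is the mean level of DIO-HFD mice, in which replicate 1, at 66.2%, is 0.953 of the group's range away from the nearest other mouse, and replicates 2, 3 and 4 are at 57.2%, 57.6% and 57.6%. This group is not part of the comparison of DIO-LFD with CON-LFD mice and enters the fit only through its spread. Without this mouse the adjusted p by limma was 0.00442 for the site of Ctnnb1, 0.0143 for that near Mroh2b and 0.00865 for that of Fam110b. Sites with an unadjusted p under 0.05 by limma numbered 2670 without this mouse and 1841 with it. Over the tested sites it lay 17.7 to 18.8 percentage points from DIO-HFD replicates 2, 3 and 4, which lay 9.60 to 10.1 from each other. The cause was not tested.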

How the results depend on the processing

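Calls of single sites depended on most settings. Against 3 sites, 0 passed with an offset of 0.1, with levels in place of M, and with trend and robust. The same held with only the 6 mice compared and with the replicate number as a block. In these fits limma's unadjusted p was under 0.05 at 1664 to 1963 sites. Outside CCGG 0 passed as well, and 1169 sites had an unadjusted p under 0.05. That filter takes out the called sites of Ctnnb1 and Mroh2b, which lie within CCGG, so only the Fam110b site could remain (adjusted p = 0.0966 by limma). With adjusted p under 0.01 or a standard deviation of at least 0.1, 1 passed. Leaving out 1 mouse gave 1 to 20, and leaving out CON-LFD replicate 3 and DIO-LFD replicate 2 gave 19. The cause was not tested. Equal replicate numbers did not mark pairs (correlations of 0.0780, -0.0130 and 0.0530 between mice of the same number). The block changed no count of regions or promoters, which was 0 in every alternative run. Regions with an unadjusted p under 0.05 by limma, 52 in all, were 126 after centring and 112 without DIO-HFD replicate 1.

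The difference in mean level changed sign without 1 mouse, with a range of -1.12 to 0.989 percentage points, and was -0.227 without both mice. By class, leaving out 1 mouse gave -0.826 to 0.691 for promoter islands, -1.23 to 1.41 for other promoters, -1.09 to 1.30 for other islands, -1.42 to 1.81 for exons, -1.17 to 1.48 for introns and -1.03 to 0.257 for sites without a flag. Without both mice the first 3 were -0.679, -0.0640 and -0.164, and the median over sites gave -0.0874 for other islands. No exact p was below 0.4. For the 41 named sites, regions and promoters, 1005 values under alternatives kept direction and side of the threshold. In 34 the call was lost, all at the 3 called sites, and no direction turned. The groups did not overlap at any of the 41, so leaving out a mouse could not turn a direction. Features other than the 3 called sites had no call to lose, so these counts do not measure how stable they are. Read depth is unknown, so exact levels of 0% and 100% cannot be told from few reads.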

Other observations

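When DIO-LFD replicate 2 was left out, 20 sites had an adjusted p under 0.05 by limma, 12 higher and 8 lower, and these were named after their values were seen. At 18 of them, DIO-LFD replicates 1 and 3 were both at exactly 0% or 100%. Other pairs showed the same when the third mouse was left out. Without DIO-LFD replicate 1, replicates 2 and 3 were both at 0% at the called Rreb1 site and at 100% at the Zdhhc18 site. Without DIO-LFD replicate 3, replicates 1 and 2 were both at 0% at the Patz1 site and at 100% at the Rusc1 site. The share of all tested sites with such a pair was not counted. At Nkiras1, which encodes an inhibitor of NF-kappa-B signaling, a promoter island site was at 44.4%, 55.9% and 52.0% in CON-LFD mice, at 0%, 48.6% and 0% in DIO-LFD replicates 1, 2 and 3, and at 0% in all 4 DIO-VSG mice, which had lost weight after sleeve gastrectomy. At Metap1, a methionine aminopeptidase, the levels were 28.9%, 39.6% and 36.6% against 0%, 34.8% and 0%, and the DIO-VSG mice were at 0%, 2.33%, 0% and 0%. At Cdk13, a kinase of transcription, 2 island sites at 17803348 and 17803558 of chromosome 13 went opposite ways. The first was at 44.1%, 43.6% and 56.9% against 0%, 47.9% and 0%, and the second was at 57.6%, 56.7% and 36% against 100%, 50.7% and 100%. Unlike at Nkiras1 and Metap1, DIO-VSG mice were not at an extreme at the Cdk13 sites, with 34.5%, 46.7%, 35.3% and 49.2% at the first and 65.5%, 53.3%, 64.7% and 46.8% at the second. At the Nkiras1, Metap1 and Cdk13 sites DIO-LFD replicate 2 lay among or near the CON-LFD mice, and replicates 1 and 3 did not. These sites were chosen from calls made without replicate 2 and were not called with it, so this pattern follows from the choice.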
